A study of Folsomia candida with 36 samples.

Results

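The 50 gene models described here, called the members, were chosen by their measured expression in the springtail Folsomia candida at 24 and 36 h. They are those most negatively correlated with exposure to imidacloprid at these times, out of 15805 gene models with a mean of at least 1 CPM (counts-per-million) and 28734 in all. The correlation was taken over 12 libraries on log2(CPM + 0.5), after each time point's mean had been subtracted, with CPM taken from each library's total count. The libraries of 12, 48, 60 and 72 h played no part in the ranking, apart from the minimum of 1 CPM, which is a mean over all 36 libraries. They therefore hold the comparisons that can be tested. The label of the set, genes lowered early by imidacloprid, restates how its members were chosen and is no finding.

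Folsomia candida is a soil-dwelling hexapod that is widely used in soil toxicology. Pools of 70 wild-type animals of the Berlin strain were kept on a natural soil mixed either with water alone (control) or with imidacloprid at 0.25 mg per kg dry soil, the concentration that the submitters give as lowering reproduction by 20%. Whole bodies were sampled every 12 h up to 72 h, with 3 libraries for each of the 2 treatments at each of the 6 time points. The labels give no age for the animals, and they do not say whether the libraries of a group came from separate jars, so p-values measure the spread between libraries. Values are from whole animals, in which fewer cells of a type and less RNA per cell cannot be told apart.

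Imidacloprid is a neonicotinoid insecticide. It binds nicotinic acetylcholine receptors, the ligand-gated cation channels that carry fast excitatory signals in the central nervous system of insects, and keeps them active because it is not broken down by acetylcholinesterase. Insects clear it mainly through cytochrome P450 enzymes and conjugating enzymes. None of the members can be placed in these or other pathways here, because the deposited table lists identifiers without product names and 0 of them were found among the 27231 genes of an annotation table for the species. The labelled tissue, whole body, could not be checked against marker genes for the same reason. Members are named by identifier, at most 2 in each direction for a comparison unless they complete a short count.

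Total counts ranged from 20280135 to 42146055 per library (median 25542483). The floor of 3 counts corresponds to 0.148 CPM where the total was smallest, and covers counting error only. A set of 108 co-varying genes set 11 libraries apart from the other 25, of which 2 were among those that chose the members and 9 among the rest. None of the 50 members belonged to that set (0 of 108). The median log2 fold change of the members in each comparison is given with and without those 9 libraries. Counts of members in tests are given without them for most comparisons, and other counts only with them.

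The members had mean levels between 1.01 and 1075 CPM over all libraries, with a median of 11.5 CPM, against 18.3 CPM for all 15805 eligible genes. Their correlations with treatment ran from -0.963 to -0.861. The gene at the top of the ranking, Fcan01_01222, stood at 2.05, 1.46 and 1.30 CPM in the controls of 24 h and at 0.303, 0.370 and 0.522 CPM with imidacloprid. At 36 h it stood at 2.80, 2.33 and 2.22 CPM in controls and at 0.273, 0.345 and 0.341 CPM with imidacloprid. Fcan01_19154, the next in the ranking, had 40.1, 39.6 and 39.5 CPM in the controls of 24 h and 19.2, 14.9 and 15.9 CPM with imidacloprid. In both genes every exposed library lay below every control at these times, as the choice favours. The last member, Fcan01_19007, had a correlation of -0.8608 and the first gene outside the set, Fcan01_10539, one of -0.8608 too, so the border falls within a nearly continuous ranking. At 24 h, controls had 60.1 CPM ± 18.6 of Fcan01_19007 and exposed animals 16.9 ± 3.56 (SD, n = 3 each). For Fcan01_10539 the means were 6.69 ± 0.579 and 4.01 ± 0.603. The most abundant members were Fcan01_20261, at 1812 CPM ± 471 in the controls of 36 h and 607 ± 133 with imidacloprid, and Fcan01_23440, at 514 ± 47.8 and 299 ± 31.4.

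At the times that chose them, the members differed widely in size of difference. At 24 h exposed animals had 1.23 to 7.73 times less of a member than controls, with a median of 1.82, on the scale of log2(CPM + 0.5). At 36 h the differences were 1.32-fold to 6.02-fold, with a median of 2.08-fold. All 3 exposed libraries lay below every control for 49 of the 50 members at 24 h and for 50 at 36 h, where 3.35% and 12.4% of the 15805 eligible genes did so and 3.23% and 13.6% did the reverse. These counts follow from the choice. Membership was itself sensitive to single libraries. Leaving out 1 of the 12 libraries kept between 29 and 44 of the 50 genes. The lowest overlaps were 29, when replicate 6 of imidacloprid 24 h was left out, and 31, when replicate 2 of imidacloprid 36 h was.

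Relative to 12 h, the members stood lower on average in exposed animals at both 24 and 36 h, and higher in controls mainly at 36 h. The level of the set in a library was taken as the mean over the members of log2(CPM + 0.5), after subtraction of each gene's mean over all libraries. In controls it was -0.21, 0.14 and 0.27 at 12 h, 0.17, 0.22 and 0.62 at 24 h, and 0.52, 0.54 and 0.69 at 36 h. With imidacloprid it was -0.60, -0.40 and 0.26 at 12 h, -0.89, -0.76 and -0.47 at 24 h, and -0.67, -0.63 and -0.49 at 36 h. At 24 h, 32 of the 50 members stood above their 12 h mean in controls, with a median change of 0.14 (all eligible genes 0.08). With imidacloprid 44 stood below it at 24 h, with a median change of -0.37 (all eligible genes 0.08). By 36 h, 44 stood above it in controls (median change 0.47, all eligible genes 0.07). With imidacloprid 41 stood below it at 36 h (-0.29, all eligible genes 0.10). The values of 24 and 36 h chose the members, so these are descriptions with no test.

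At the other times the levels of both treatments overlapped. At 48 h the level of the set was -0.34, -0.26 and 0.15 in controls and -0.85, -0.38 and 0.33 with imidacloprid. At 60 h it was -0.02, 0.29 and 0.79 in controls and -0.22, 0.14 and 0.30 with imidacloprid. At 72 h it was 0.26, 0.28 and 0.78 in controls and -0.17, 0.20 and 0.42 with imidacloprid. The mean of the exposed libraries was below that of the controls at each of these times and at 12 h, but at least 1 exposed library lay within or above the range of the controls at each of them.

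**Figure D1:**
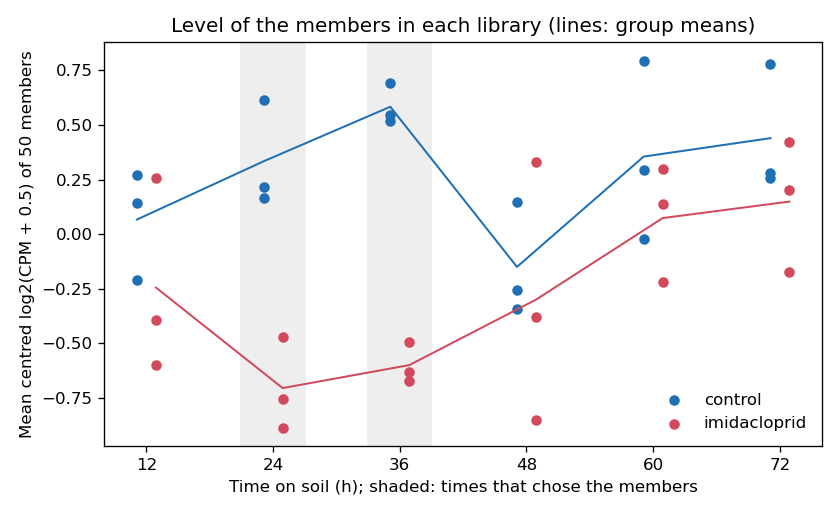
Mean level of the 50 members in each library, as log2(CPM + 0.5) centred on each gene's mean (y axis), against time on soil in hours (x axis), with a point for each library and lines through the group means. The treatments separate at the shaded times of 24 and 36 h, which chose the members, and overlap at 12, 48, 60 and 72 h.

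The comparison over the 4 remaining time points asks whether genes picked for a low level at 24 and 36 h were also lower in animals sampled at other times. No member passed the test. edgeR's quasi-likelihood test, fitted to the 24 libraries of these times, called 0 members lower and 0 higher at a Benjamini-Hochberg adjusted p under 0.05, where it called 0.0% of the 19421 tested genes lower and 0.0412% higher. All 50 members had enough counts to be tested. DESeq2 called 5 members lower and 0 higher on the same libraries (0.0618% and 0.201% of all genes it tested), and limma-voom called 0. An edgeR fit of all 36 libraries called 2 lower (0.0102% of all genes). That fit includes the libraries that chose the members, so its spread is not independent of the choice. At an unadjusted p under 0.05, edgeR had 12 of the 50 members lower and 0 higher, against 0.829% of all tested genes lower and 2.65% higher. Without the 9 libraries set apart, 4 members were lower at that threshold, against 1.98% of all genes in the same fit. When replicate 5 of imidacloprid 48 h was left out there were 19, against 0.869% of all genes, of which 1, Fcan01_20402, passed the adjusted threshold. Beside these counts, the median log2 fold change of the 50 members was -0.17, and 30 of the 50 were lower. For all tested genes the median was 0.00 and 49.6% were lower. The median of the members was -0.31 when replicate 5 of imidacloprid 48 h was left out and -0.06 when replicate 5 of control 72 h was. It was -0.16 without the 9 libraries set apart.

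Fcan01_20402 had the smallest p of these. It stood at 1.46, 1.92 and 2.41 CPM in the controls of 12 h and at 1.54, 1.03 and 0.410 CPM with imidacloprid. At 48 h the values were 1.35, 0.660 and 1.69 CPM against 0.167, 0.933 and 0.163 CPM. At 60 h they were 1.97, 0.815 and 2.36 CPM against 0.557, 0.0865 and 0.190 CPM, and at 72 h 0.612, 0.783 and 1.08 CPM against 0.102, 0.0877 and 0.323 CPM. The exposed libraries lay below every control at 60 and 72 h and overlapped them at 12 and 48 h. Its log2 fold change over the 4 times was -1.80 ± 0.37 (SE), which did not pass (edgeR adjusted p = 0.123), with adjusted p from 0.000505 to 1.00 over the 33 alternatives that could test it. The exposed values rest on 4, 30 and 4 counts at 48 h and on 18, 2 and 6 at 60 h. At 72 h they rest on 3, 2 and 9 counts, so the size of the difference at these times is uncertain.

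Fcan01_07162, which is more abundant, came next. It stood at 27.7, 29.8 and 65.4 CPM in the controls of 12 h and at 33.9, 31.7 and 20.9 CPM with imidacloprid. At 48 h it had 14.6, 13.7 and 19.3 CPM in controls and 9.50, 11.1 and 7.62 CPM with imidacloprid, and at 60 h 25.8, 16.3 and 39.5 CPM in controls and 10.7, 10.6 and 9.35 CPM with imidacloprid. All exposed libraries were below all controls at both of these times, and the groups overlapped at 12 and 72 h. Its log2 fold change over the 4 times was -0.82 ± 0.18 (SE, edgeR adjusted p = 0.182), which passed with DESeq2 and in none of the other alternatives (adjusted p from 0.00222 to 1.00). Of the members that were higher, Fcan01_07073 and Fcan01_15581 had the smallest p, with log2 fold changes of 0.28 ± 0.13 and 0.25 ± 0.17 (edgeR adjusted p = 0.851 for both).

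**Figure D2:**
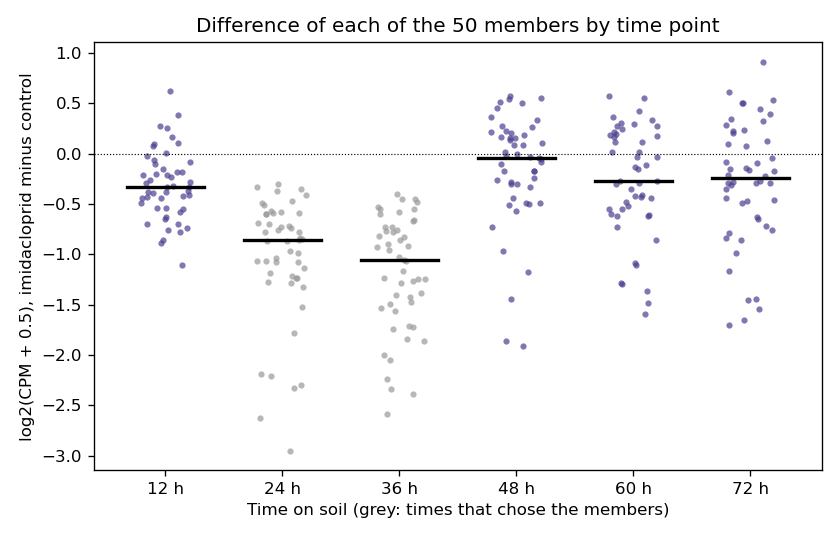
Difference between imidacloprid and control for each of the 50 members, in log2(CPM + 0.5) (y axis), at each time point (x axis), with a point for each gene and a black bar at the median. The median was -0.86 at 24 h and -1.06 at 36 h, the times in grey that chose the members, and between -0.33 and -0.04 at the other 4.

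The direction of the difference was kept over time by some members and not by others. Of the 50 members, 16 had a lower fitted level with imidacloprid at all 4 remaining times, 10 at 3, 11 at 2, 11 at 1 and 2 at none. Over all tested genes, 8.06% were lower at all 4 times, 26.1% at 3, 30.8% at 2, 26.9% at 1 and 8.15% at none. The members with a lower level at all 4 included Fcan01_20402 and Fcan01_07162, and the members with a higher level at all 4 were Fcan01_10525 and Fcan01_26165, which are named after their values were seen.

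**Figure D3:**
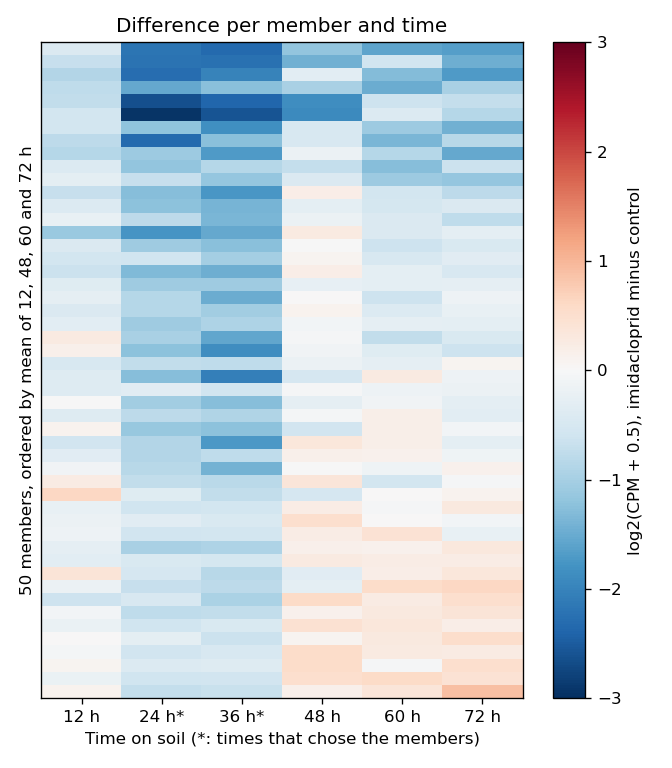
Difference between imidacloprid and control in log2(CPM + 0.5) (colour, blue lower and red higher with imidacloprid) for each member (rows, ordered by the mean of the 4 times that did not choose them) at each time point (columns). The columns of 24 and 36 h, marked by an asterisk, are blue throughout by choice, and the other columns hold both colours.

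At 12 h, the first time sampled, the members leaned lower with imidacloprid and none passed the test. edgeR called 0 of them (0.0% of all tested genes lower, 0.0% higher), as did DESeq2 and limma-voom, and 1 member was lower and 0 higher at an unadjusted p under 0.05, against 0.685% and 1.64% of all tested genes. Leaving out single libraries gave 0 to 6 lower, with the 6 reached without imidacloprid 12 h replicate 2, where 2.32% of all genes were lower. Their median log2 fold change was -0.35, with 40 of 50 lower, where the median of all tested genes was 0.00 and 49.5% were lower. The median rested on single libraries. It was -0.71 without imidacloprid 12 h replicate 2, whose level of the set was 0.26 where the other exposed libraries had -0.60 and -0.40. It was -0.15 when replicate 6 of the same group was left out instead. Both of these libraries are among those set apart by the co-varying genes, and without all 9 such libraries the median was -0.65, from 1 exposed library at this time, with 1 member lower and 0 higher at an unadjusted p under 0.05 (0.797% and 0.322% of all genes). Their part in the result was not tested.

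The exposed libraries of 12 h lay below all controls for 3 members, Fcan01_01222, Fcan01_07292 and Fcan01_19007, and above them for 0, where 1.83% and 1.54% of the eligible genes did so. Fcan01_19007 stood at 24.0, 22.1 and 50.9 CPM in controls and 15.9, 16.8 and 9.56 CPM with imidacloprid, without overlap, which gave -1.18 ± 0.54 in log2 units (SE, adjusted p = 1, edgeR). Fcan01_01222 stood at 0.302, 0.687 and 0.820 CPM in controls and 0.266, 0.250 and 0.205 CPM with imidacloprid, near the floor, and its log2 fold change was -1.30 ± 0.69 (edgeR adjusted p = 1). Fcan01_01508 and Fcan01_20261 were the members with the smallest p among those higher, at 0.71 ± 0.43 and 0.54 ± 0.67 (edgeR adjusted p = 1 for both). For Fcan01_20261 the direction turned, to -0.56, without imidacloprid 12 h replicate 2, in which it had 2468 CPM where the other exposed libraries had 522 and 718 CPM. Without the 9 libraries set apart the values were -0.35 for Fcan01_01508 and -0.88 for Fcan01_20261.

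At 48 h, a single step after the times that chose the members, the members leaned in no common direction. edgeR called 0 members (0.0% of all tested genes lower, 0.0154% higher), and so did DESeq2 and limma-voom. Members with an unadjusted p under 0.05 were 2 lower and 1 higher, against 4.66% and 4.92% of all tested genes. The number lower depended on the fit. It was 5 with DESeq2 size factors, column totals, DESeq2 or no filter on low counts, where 4.13% to 6.83% of all genes were lower, and 4 with limma-voom (4.12%). It was 6 when replicate 5 of imidacloprid 48 h was left out, against 2.04% of all genes, and 1 with a replicate block, against 2.6%. Without the 9 libraries set apart, which left 1 control at this time, 2 members were lower and 0 higher (2.92% and 5.35% of all genes), and the median log2 fold change was 0.22. The median log2 fold change of the members was 0.13, with 21 of 50 lower, and that of all tested genes 0.06, with 46.3% lower. With other ways to scale libraries it was 0.04 (DESeq2 size factors) or 0.07 (column totals), and on the log2(CPM + 0.5) scale -0.04. It was -0.38 when replicate 5 of imidacloprid 48 h was left out and 0.43 when replicate 3 was, the exposed libraries with the highest and the lowest level of the set at this time.

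Fcan01_22151 stood at 14.4, 17.0 and 5.67 CPM in the controls of 48 h and at 2.54, 2.99 and 2.32 CPM with imidacloprid, so that the groups did not overlap. Its log2 fold change was -2.21 ± 0.77 (SE, edgeR adjusted p = 0.495). Fcan01_26205 had 9.98, 10.3 and 5.78 CPM in controls and 0.834, 3.61 and 2.20 CPM with imidacloprid, at -1.90 ± 0.75 (edgeR adjusted p = 0.495). These genes followed each other closely, with a correlation of 0.884 between their deviations from group means over the 24 libraries. Both were measured in the same libraries and so share each library's depth and preparation. At 24 h both had stood high in the same control library, replicate 3, at 34.4 and 26.0 CPM. With Fcan01_07162, given above, they are the 3 members with all exposed libraries below all controls at 48 h (4.61% of eligible genes).

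The reverse held at 48 h for 2 members, Fcan01_07073 and Fcan01_24700, against 5.73% of the eligible genes. Fcan01_07073 stood at 5.98, 4.58 and 4.92 CPM in controls and at 9.21, 7.90 and 6.44 CPM with imidacloprid, which gave 0.64 ± 0.27 in log2 units (SE, adjusted p = 0.495, edgeR). Fcan01_24700 stood at 9.39, 8.02 and 9.61 CPM in controls and at 11.1, 17.3 and 11.5 CPM with imidacloprid, at 0.62 ± 0.30 (edgeR adjusted p = 0.495).

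**Figure D4:**
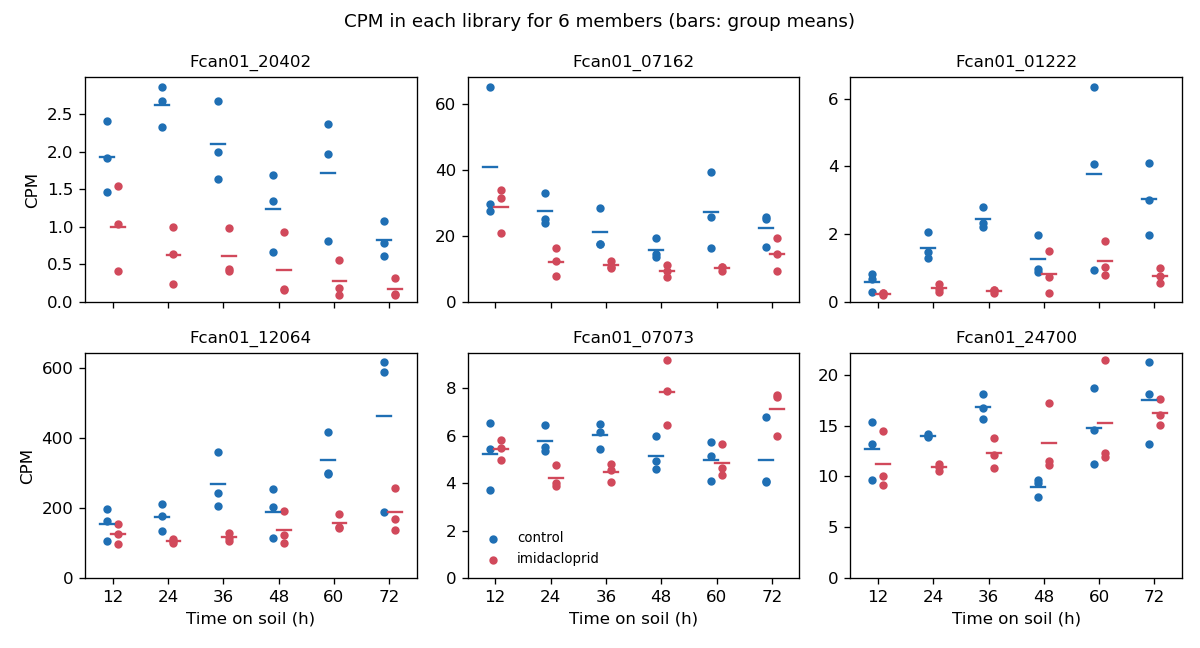
CPM in each library (y axes, linear from 0) against time on soil in hours (x axes) for 6 members, with points for libraries and bars for group means. The exposed libraries of Fcan01_20402 lay below all controls at 60 and 72 h, those of Fcan01_07162 at 48 and 60 h, and those of Fcan01_07073 and Fcan01_24700 above all controls at 48 h.

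At 60 h some members had lower levels with imidacloprid, and none passed the test. edgeR called 0 members (0.0% of all tested genes lower, 0.0154% higher), as did DESeq2 and limma-voom, and 7 members were lower and 0 higher at an unadjusted p under 0.05, against 0.463% and 2.27% of all tested genes. Without the 9 libraries set apart, which left 1 exposed library at this time, 0 were lower, against 0.445% of all genes, and the median log2 fold change was -0.20. A replicate block left 2 (0.391%). Leaving out single libraries gave 2 to 12, for which the share of all genes, itself different between fits, is not given. The median log2 fold change was -0.25, with 31 of 50 members lower, and that of all tested genes 0.01, with 49.2% lower. It was -0.42 without control 60 h replicate 5 and -0.03 without control 60 h replicate 6. Fcan01_07162 differed by -1.43 ± 0.36 (SE) and Fcan01_20402 by -2.59 ± 0.74 in log2 units (edgeR adjusted p = 1 for both). The value of Fcan01_20402 rests on few exposed counts and ran from -3.61 to -1.60 over the alternatives. All exposed libraries lay below all controls for 5 members (2.07% of eligible genes). These were both genes just named and Fcan01_19154, Fcan01_10364 and Fcan01_12064. Fcan01_12064 stood at 298, 296 and 415 CPM in controls and at 145, 183 and 143 CPM with imidacloprid. The reverse held for 1 member, Fcan01_00595 (2.91% of eligible genes), at 2.63, 1.63 and 2.53 CPM in controls and 3.25, 3.25 and 3.01 CPM with imidacloprid. Fcan01_00595 and Fcan01_00682 had the smallest p among members higher at 60 h, at 0.47 ± 0.25 and 0.55 ± 0.45 in log2 units (edgeR adjusted p = 1 for both).

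At 72 h, as at 60 h, some members had lower levels with imidacloprid and none passed the test. edgeR called 0 members (0.00515% of all tested genes lower, 0.0103% higher), as did DESeq2 and limma-voom. At an unadjusted p under 0.05, 7 members were lower and 0 higher, against 1.81% and 1.36% of all tested genes. Without the 9 libraries set apart, again with 1 exposed library left, 0 were lower and 1 higher, against 4.23% and 1.93% of all genes, and the median log2 fold change was -0.18. In this group 2 of the 3 exposed libraries carry the same replicate number, 4. An alternative summed these and left out imidacloprid 12 h replicate 5 and imidacloprid 60 h replicate 1 for irregular titles. In it, 4 members were lower (1.18% of all genes). With all libraries the median log2 fold change was -0.29, with 35 of 50 lower, where that of all tested genes was -0.03 and 54.2% were lower. It was -0.48 without imidacloprid 72 h replicate 1 and -0.16 without control 72 h replicate 5. Fcan01_12064 stood at 188, 587 and 615 CPM in controls and at 257, 138 and 168 CPM with imidacloprid, with 1 control among the exposed values, and its log2 fold change was -1.35 ± 0.40 (SE, edgeR adjusted p = 1). Fcan01_01222 had 4.09, 3.01 and 1.97 CPM in controls and 0.546, 1.01 and 0.755 CPM with imidacloprid, without overlap, at -2.02 ± 0.64 (edgeR adjusted p = 1). All exposed libraries lay below all controls for 10 members, against 3.34% of eligible genes, and above them for 2, Fcan01_18421 and Fcan01_10398, against 4.59%. Fcan01_18421 stood at 10.6, 8.26 and 11.8 CPM in controls and at 14.3, 13.6 and 12.6 CPM with imidacloprid. By fitted p the members that led those higher were Fcan01_07073 and Fcan01_26165, at 0.47 ± 0.27 and 0.62 ± 0.52 in log2 units (edgeR adjusted p = 1 for both).

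Whether the difference at 12 h changed later was tested as the mean of 48, 60 and 72 h minus 12 h. edgeR called 0 members in either direction (0.0% of all tested genes lower, 0.0% higher), as did DESeq2 and limma-voom. At an unadjusted p under 0.05 there were 0 members lower and 1 higher, against 1.01% and 2.14% of all tested genes. The median change was 0.21 for the members and -0.01 for all tested genes, and it was 0.59 without imidacloprid 12 h replicate 2, 0.58 without the 9 libraries set apart and 0.01 without control 12 h replicate 3. Fcan01_17100 and Fcan01_19007 had the smallest p among members whose difference was more positive later, by 1.31 ± 0.56 and 1.06 ± 0.61 in log2 units. Fcan01_01508 and Fcan01_20402 had the smallest p among those whose difference was more negative later, by -0.88 ± 0.50 and -1.16 ± 0.80. The edgeR adjusted p was 0.910 for all 4. The value of Fcan01_01508 turned to 0.27 without the 9 libraries set apart.

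In animals never exposed, the members tended to stand higher at 72 h than at 12 h. edgeR called 0 members in either direction, where it called 0.87% of all tested genes higher and 0.412% lower. DESeq2 called 5 higher, against 3.04% of all genes it tested, and limma-voom 0. An edgeR fit of all 36 libraries, which include those that chose the members, called 4, against 1.95%. At an unadjusted p under 0.05, 8 members were higher and 1 lower, against 8.72% and 4.71% of all tested genes. Without the 9 libraries set apart, 5 were higher and 1 lower (7.49% and 4.46% of all genes), with a median log2 fold change of 0.10. With all libraries the median was 0.39, with 14 of 50 lower, where for all tested genes it was 0.01 and 48.7% were lower. The median of the members was 0.10 without control 72 h replicate 5 and 0.60 without control 12 h replicate 3. Fcan01_12064 stood at 105, 164 and 196 CPM in the controls of 12 h, below 2 of the 3 values of 72 h given above, which gave a log2 difference of 1.60 ± 0.41 (SE, edgeR adjusted p = 0.0590, from 0.00414 to 0.274 over the alternatives). Fcan01_14587 stood at 13.2, 15.1 and 9.79 CPM in the controls of 12 h and at 34.3, 79.5 and 96.1 CPM in those of 72 h, without overlap, at 2.45 ± 0.66 (edgeR adjusted p = 0.0750, from 0.00366 to 0.276). Of members lower at 72 h, Fcan01_07162 and Fcan01_10364 had the smallest p, at -0.83 ± 0.36 and -1.07 ± 0.57 (edgeR adjusted p = 0.311 and 0.431).

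Exposed animals also tended to have more of the members at 72 h than at 12 h. edgeR called 0 members (0.144% of all tested genes higher, 0.0824% lower), DESeq2 2 higher and 2 lower (1.01% and 0.741% of all genes it tested), and limma-voom 0. At an unadjusted p under 0.05, 11 members were higher and 3 lower, against 6.41% and 3.83% of all tested genes. Of the 6 libraries compared 4 are among those set apart, and without all 9 there were 4 members higher and 0 lower (2.8% and 1.43% of all genes), with a median log2 fold change of 0.75 from 1 library at each time. With irregular titles left out or summed, 3 were higher and 2 lower (3.49% and 1.79%), as with a replicate block (7.41% and 2.63%). With all libraries the median was 0.51, with 12 of 50 lower, where for all tested genes it was 0.02 and 48.9% were lower. The median of the members was 0.24 when replicate 1 of 72 h was left out and 0.81 when replicate 2 of 12 h was. Fcan01_07292 stood at 10.2, 8.11 and 8.33 CPM with imidacloprid at 12 h and at 18.6, 20.5 and 15.7 CPM at 72 h, without overlap, which gave a log2 difference of 0.99 ± 0.22 (SE, edgeR adjusted p = 0.0675, from 0.00044 to 1.00 over the alternatives). In controls the same gene differed by 0.80 ± 0.22 between these times (edgeR adjusted p = 0.0830). Fcan01_17100 stood at 3.31, 3.44 and 2.50 CPM at 12 h and 18.2, 11.6 and 13.4 CPM at 72 h with imidacloprid, at 2.19 ± 0.50 (edgeR adjusted p = 0.0737, from 0.000974 to 1.00). Fcan01_25341 and Fcan01_20402 led the members that were lower at 72 h, at -2.80 ± 0.77 and -2.58 ± 0.78 (edgeR adjusted p = 0.157 and 0.215). Fcan01_25341 stood at 10.6, 2.50 and 1.56 CPM at 12 h and at 0.990, 0.658 and 0.575 CPM at 72 h, without overlap. The comparisons within a treatment share their libraries with those of imidacloprid against control at 12 and 72 h.

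The members varied together from library to library within groups, in data that did not choose them. Over the 24 libraries of 12, 48, 60 and 72 h, the deviations from group means had a median correlation of 0.535 over the 1225 pairs of members, against 0.005 over all pairs of tested genes. Correlations above 0.5 were found for 55.8% of pairs of members and 15.7% of all pairs. These are descriptions. Genes measured in the same library share its depth and scaling and are not independent. All tested genes include some with a mean under 1 CPM, and the members share a direction by choice, so the pairs compared are not matched. The first principal component of the deviations of all tested genes held 33.5% of their variance, and the mean deviation of the members had a correlation with it of 0.631 in size (Pearson, n = 24 libraries) and 0.550 (Spearman). Among single libraries, the mean deviation of the members was highest in imidacloprid 48 h replicate 5, at 0.81 log2 units above its group, and lowest in imidacloprid 48 h replicate 3, at -0.71.

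The members did not all follow the mean of the set. It was taken over standardised levels without subtracting group means, so differences between times and treatments enter these correlations. Fcan01_07723 followed the mean of the standardised members most closely, with a correlation of 0.931 over the 24 libraries, whereas Fcan01_20402 had 0.297, Fcan01_07073 0.175 and Fcan01_01508 -0.04. Fcan01_03247 and Fcan01_23232 were the pair of members most alike, with a correlation of 0.966 between their deviations. The mean of the members contains each member but no gene outside the set, so the correlations of members and of other genes are unlike measures. Genes outside the set reached values near that of the closest member. The 2 most alike were Fcan01_03321, with a correlation of 0.931 and a mean of 61.6 CPM, and Fcan01_21853, with 0.928 and 27.2 CPM. Among the identifiers of the members, Fcan01_00682 and Fcan01_00683 differ by 1 and Fcan01_22149 and Fcan01_22151 by 2, and the deviations of these pairs had correlations of 0.542 and 0.395. The members and pairs of members in these sentences were singled out after their values were seen.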

How the data were processed

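Whole-body RNA of springtail pools was sequenced in 36 libraries. Per the labels' protocols, the authors made stranded mRNA libraries with a TruSeq kit from TRIzol extracts, ran Trim Galore with Cutadapt (0.6.7 is the version stated), then Salmon 1.4.0 against a transcriptome, and used DESeq2 1.28.1 to normalize. The sources used here do not give the release of the transcriptome. What the authors deposited are estimated counts for each gene model. They are whole numbers (0 were not) with unequal library totals, and were used as raw counts. Because Salmon shares reads among similar transcripts, near-identical gene copies have uncertain counts.

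Groups came from the titles. That of imidacloprid 12 h replicate 5 has no library number, and that of imidacloprid 60 h replicate 1 has 34, out of sequence. The alternative for irregular titles left both out. Other numbers out of order, such as 2 on imidacloprid 12 h replicate 6, stayed in it. Replicate number 4 occurs on 2 imidacloprid libraries of 72 h, named here by library number, 71 and 72. Their chi-square per degree of freedom was 104.6, where pairs within groups ranged from 20.7 to 341.9, and both were kept as replicates. The members and tests were chosen with earlier results of these data known.

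Tests used edgeR 4.0.16 in R 4.3.3 on the 24 libraries of 12, 48, 60 and 72 h, so that the libraries that chose the members entered neither the filter nor the spread. filterByExpr (minimum count 10, minimum total 15) kept 19421 genes, TMM factors ran from 0.906 to 1.10, and a robust quasi-likelihood model had a mean for each of the 8 groups (16 residual degrees of freedom). P-values were adjusted by Benjamini-Hochberg over all tested genes at 0.05. SEs were obtained from the log2 fold change and the root of its F statistic. Printed CPM values use column totals. The code was tested on simulated data. Named members are, for each comparison, called members with the largest change, or else, as here throughout, the 2 with the smallest p in each direction, besides the ends of the ranking, the most abundant and the genes most alike. Gene lists by product name could not be formed. Alternatives were DESeq2 1.42.0, limma-voom (limma 3.58.1), other scalings and filters, all 36 libraries, a replicate block, the libraries with irregular titles left out or summed, other choices of members, and single libraries left out. An alternative without the 9 libraries set apart was added after seeing the data.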

Additional observations from a re-analysis of the deposited data

Results flagged for a closer look

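The values of 5 members were noted because all 3 exposed libraries lay above every control at a later time, where at 24 and 36 h all had lain below. Of all eligible genes, 5.73% at 48 h, 2.91% at 60 h and 4.59% at 72 h had all exposed libraries above every control. The members that did so were 2 of 50, 1 of 50 and 2 of 50, near that background at each time. The choice of the members fixed the earlier direction, and the difference between the times was not tested. In log2(CPM + 0.5), imidacloprid minus control was 0.52 for Fcan01_24700 and 0.56 for Fcan01_07073 at 48 h, 0.43 for Fcan01_00595 at 60 h, and 0.40 for Fcan01_18421 and 0.29 for Fcan01_10398 at 72 h. None of these passed edgeR's test at that time. Groups of 3 libraries are too small for a test of single outlying libraries.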

How the results depend on the processing

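The count of 0 called members in edgeR held at 12, 48, 60 and 72 h and for the change of the effect over time in every alternative run, with libraries left out in turn giving 0 to 0. Over the mean of the 4 time points, DESeq2 called 5 members and the fit of all 36 libraries 2, and leaving out single libraries, from the fit or from the choice of members, gave 0 to 1. The 12 members lower there at an unadjusted p under 0.05 became 4 without the libraries set apart and 8 to 19 with single libraries left out. Between 72 and 12 h in controls, DESeq2 called 5, the fit of all 36 libraries 4, and leave-one-out runs 0 to 2. Between 72 and 12 h with imidacloprid, DESeq2 called 4, column totals 2, the fit of all 36 libraries 2, and leave-one-out runs 0 to 2. That fit includes the libraries that chose the members, so its spread is not independent of the choice. The causes of the changes between fits were not tested. Shares of all genes also change between fits and are not given beside the counts in this section. Directions turned for Fcan01_20261 at 12 h (-0.56 without imidacloprid 12 h replicate 2, in a range up to 1.04 with single libraries left out, and -0.88 without the libraries set apart) and for Fcan01_01508 without the libraries set apart (-0.35 at 12 h, 0.27 for the change over time). The replicate block called 0 members in each comparison and left 9 of 12 lower at an unadjusted p under 0.05 over the 4 time points, 2 of 7 at 60 h and 1 of 2 at 48 h. Same-numbered libraries of both treatments had correlations of deviations from -0.337 to 0.507, so numbers were not taken as pairs. With 3 libraries a group, an exact permutation test cannot give a p under 0.1 at a single time point, and none was run.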
